A study of Homo sapiens with 15 samples.

Results

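The aryl hydrocarbon receptor pathway was followed here through 7 genes, the receptor AHR, its dimer partners ARNT and ARNT2, the feedback repressors AHRR and TIPARP, and the target genes CYP1A1 and CYP1B1. They are 7 of the 20806 gene entries in the count tables, each on 1 entry, and all 7 passed the filter on low counts that left 14246 genes for testing. The genes were selected by symbol from the textbook pathway, with the scaled counts of all 15 libraries and 5 lines already known, and which comparison prompted the choice is not recorded. Every comparison therefore counts as used in the choice. The levels, fold changes and calls of the 7 genes below are a description of the fit to the whole table and serve as no evidence of their own.

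Poly(A) RNA was sequenced from 5 lines of C4-2, a castration-resistant subline of the LNCaP prostate cancer cells, with 3 libraries per line. KO_WT, KO_S47A and KO_S404A are knockout cells to which wild-type ATGL, the S47A protein that lacks lipase activity or the S404A protein was added back. KO carries the knockout alone, and Scramble is its control. ATGL, encoded by PNPLA2, starts the breakdown of stored triglyceride, and the lines allow its loss to be compared with the control and each added protein with the loss. The 4 lines other than Scramble share the knockout, and each genotype is 1 line, so an effect of the knockout and a difference between lines cannot be told apart. Cells of every line were kept in RPMI1640 with 5 mM glucose and 5% dialyzed serum, and no AHR ligand is named in the labels. The labels do not say whether the libraries of a line came from separate cultures, and p-values then cover only the spread among these libraries, possibly technical.

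AHR is a transcription factor of the bHLH-PAS family that waits in the cytosol with HSP90 until a ligand such as dioxin or a tryptophan derivative binds it. It then enters the nucleus, pairs with ARNT and binds DNA at xenobiotic response elements, whose core is GCGTG. The cytochrome P450 genes CYP1A1 and CYP1B1 are its classical targets, and AHRR and TIPARP are induced by it and limit it in turn.

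Gene counts per library ran between 40846694 and 64345775, and unassigned reads made up 13.2% to 20.6% of a library. PNPLA2, which checks the labels, averaged 219.9 ± 18.1 CPM (read counts scaled to library size by TMM) in KO_WT, 129 ± 30.6 in KO_S47A, 413 ± 98.3 in KO_S404A, 11.3 ± 2.0 in KO and 48.9 ± 4.76 in Scramble (SD, n = 3 each). The prostate luminal markers KLK3, KLK2, FOLH1 and HOXB13 were all expressed, while KRT5, TP63 and ALB had 0 counts in every library. Other markers from outside the luminal list had reads in every library. KRT14 had 1.38 to 4.63 CPM, the stroma marker COL1A1 9.76 to 23.2 and the blood marker CD68 7.12 to 11 CPM. COL1A2, DCN, PECAM1, CDH5 and PTPRC stayed at or below 0.1 CPM. CDX2, VIL1 and GATA3, listed with ALB, reached at most 0.525, 0.43 and 0.9 CPM. In each line the library numbered 3 stood apart from the others in its ATF4 response and proliferation genes. Its mean over 12 ATF4 response genes lay at −1.57 to −0.70 log2 units relative to the mean of all libraries, against −0.13 to 1.23 in libraries 1 and 2, and its 12 proliferation genes lay at 0.48 to 0.78, against −0.86 to 0.23. Results that rest on this difference are given below with and without it.

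The promoters are shown for the 4 genes with an AHR core element in the window searched, since this element is how the receptor recognises its targets. Windows of 300 bases, 250 before and 50 after a gene's start, came from RefSeq on GRCh38.p14 and were matched for 5 of the 7 genes, while those of ARNT2 and CYP1B1 were not analysed here. The letters GCGTG were searched on both strands and are set in capitals, as CACGC where they lie on the opposite strand.
AHR, chr7:17298402-17298701, plus strand: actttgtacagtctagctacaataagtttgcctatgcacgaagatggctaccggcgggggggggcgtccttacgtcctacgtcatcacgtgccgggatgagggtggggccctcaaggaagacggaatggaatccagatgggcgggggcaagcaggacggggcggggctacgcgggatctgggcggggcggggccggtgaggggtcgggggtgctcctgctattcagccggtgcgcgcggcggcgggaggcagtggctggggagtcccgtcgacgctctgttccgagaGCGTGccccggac
CYP1A1, chr15:74725479-74725778, minus strand: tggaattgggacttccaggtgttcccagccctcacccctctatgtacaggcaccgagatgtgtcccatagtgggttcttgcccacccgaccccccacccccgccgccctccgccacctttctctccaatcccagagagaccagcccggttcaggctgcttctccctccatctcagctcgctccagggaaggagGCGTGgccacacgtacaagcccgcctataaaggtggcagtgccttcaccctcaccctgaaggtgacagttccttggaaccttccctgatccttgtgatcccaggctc
AHRR, chr5:321464-321763, plus strand: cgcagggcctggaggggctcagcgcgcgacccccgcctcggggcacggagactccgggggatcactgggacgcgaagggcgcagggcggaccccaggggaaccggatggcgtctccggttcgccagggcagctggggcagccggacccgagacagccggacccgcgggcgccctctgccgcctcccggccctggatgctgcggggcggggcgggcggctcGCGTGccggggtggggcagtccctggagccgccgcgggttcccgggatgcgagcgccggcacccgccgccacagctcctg
TIPARP, chr3:156674340-156674639, plus strand: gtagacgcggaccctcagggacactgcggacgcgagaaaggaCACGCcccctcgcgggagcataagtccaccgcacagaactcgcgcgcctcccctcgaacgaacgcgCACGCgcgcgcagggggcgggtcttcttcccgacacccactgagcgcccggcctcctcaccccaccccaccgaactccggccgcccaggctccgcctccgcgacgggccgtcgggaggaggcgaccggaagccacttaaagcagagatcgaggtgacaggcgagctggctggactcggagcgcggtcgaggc
The core began 37 bases after the start in AHR, at −57 relative to the start in CYP1A1 and at −30 in this AHRR window, while TIPARP held 2 on the opposite strand, at −208 and −142. The core is short, and 36.5% of all 35116 promoter windows hold it. The longer form TNGCGTG, which contains the core, occurs in 5.51% of windows and among these genes only in the AHRR window shown. A further AHRR window held 2 cores, the other TIPARP windows and the ARNT window held 0, and a match describes letters, not binding.

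AHR itself was lower in all 4 knockout-derived lines than in Scramble. It had 2.78, 1.34 and 2.36 CPM in KO_WT, 3.11, 4.22 and 2.08 CPM in KO_S47A, 3.00, 2.55 and 2.71 CPM in KO_S404A and 3.14, 3.21 and 2.41 CPM in KO. In Scramble it had 8.91, 8.30 and 8.08 CPM. The lowest Scramble library was therefore higher than the highest of the 12 others, library 2 of KO_S47A. The share of all genes that separate in this way is not given, here or for the genes below. The AHR means were 2.16 ± 0.74 CPM in KO_WT, 3.14 ± 1.07 in KO_S47A, 2.75 ± 0.22 in KO_S404A and 2.92 ± 0.44 in KO, against 8.43 ± 0.43 CPM in Scramble (SD, n = 3 each). In counts, the 3 libraries together held 300 reads in KO_WT, 496 in KO_S47A, 495 in KO_S404A, 460 in KO and 1170 in Scramble. In these bulk samples, fewer cells that express AHR and less AHR RNA per cell cannot be told apart.

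**Figure D1:**
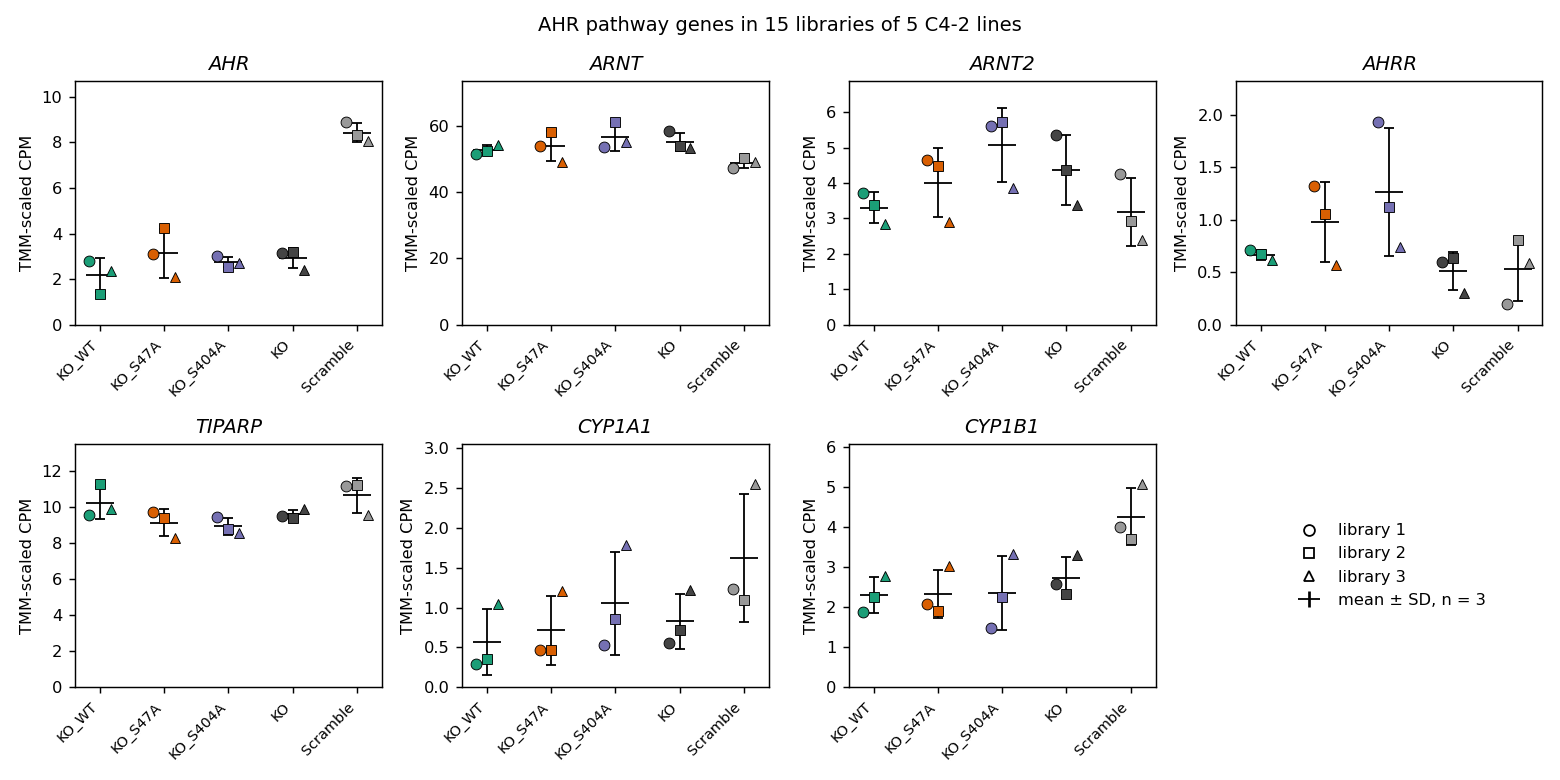
TMM-scaled CPM of the 7 AHR pathway genes in each of 15 libraries, by line, with library number as the marker shape and mean ± SD (n = 3) as bars; each panel has its own axis from 0. AHR lay between 1.34 and 4.22 CPM in the 12 knockout-derived libraries, against 8.08 to 8.91 CPM in Scramble.

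AHR differed by −1.96 log2 units (SE 0.27, adjusted p = 0.00113) in KO_WT minus Scramble, by edgeR's quasi-likelihood test with Benjamini-Hochberg adjustment over all tested genes. It was −1.42 (SE 0.27, adjusted p = 0.00776) in KO_S47A, −1.61 (SE 0.27, adjusted p = 0.00381) in KO_S404A and −1.53 (SE 0.27, adjusted p = 0.00591) in KO, each minus Scramble. These comparisons share the 3 Scramble libraries. As folds, AHR stood 3.89-fold lower in KO_WT, 2.68-fold lower in KO_S47A, 3.06-fold lower in KO_S404A and 2.88-fold lower in KO. AHR was called at an adjusted p under 0.05 in each of the 4 under every alternative tried.

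AHR was the only 1 of the 7 genes called against Scramble in this fit. The count was 1 of 7 in KO_WT minus Scramble, where 3.47% of all tested genes were called, and 1 of 7 in KO_S47A minus Scramble, with 3.82% called among all genes. It was 1 of 7 in KO_S404A minus Scramble, with 3.11% called among all genes, and 1 of 7 in KO minus Scramble, with 2.69%. At an unadjusted p under 0.05 the count was 3 in KO_WT, 2 in KO_S47A, 6 in KO_S404A and 2 in KO, each minus Scramble. Over all genes, 15.5% of the tests in these 4 comparisons passed that threshold. AHR was 1 of 132 genes called lower in all 4 comparisons, 0.927% of those tested. By log2 fold change it ranked 58 of 279 lower genes in KO_WT, 88 of 318 in KO_S47A, 66 of 252 in KO_S404A and 77 of 245 in KO, so many genes lay further below Scramble than AHR.

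Marker levels also differed between these lines. KRT14, a basal keratin and the only basal marker with reads, made up a basal sum of 1.87 to 2.45 CPM in KO_WT, 2.11 to 2.20 in KO_S47A, 1.38 to 1.78 in KO_S404A and 2.04 to 2.40 in KO, against 4.25 to 4.63 CPM in Scramble. The luminal markers KLK3, KLK2, FOLH1 and HOXB13 summed to 3730 to 5730 CPM in the 12 knockout-derived libraries, against 5740 to 6140 CPM in Scramble. These ranges nearly met, since the libraries of KO_S47A alone spread from 4220 to 5730 CPM. The part of these markers in the AHR difference was not tested.

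Adding an ATGL protein to the knockout did not bring AHR to its level in Scramble. It differed by −0.43 log2 units (SE 0.27, adjusted p = 0.634) in KO_WT minus KO, 0.10 (SE 0.27, adjusted p = 0.831) in KO_S47A minus KO and −0.09 (SE 0.27, adjusted p = 0.953) in KO_S404A minus KO. The 95% interval ran from −1.01 to 0.15 in KO_WT minus KO, −0.47 to 0.67 in KO_S47A minus KO and −0.66 to 0.49 in KO_S404A minus KO, and a missed threshold does not show that the lines were alike. None of the 3 intervals reaches a rise as large as the gap of −1.53 log2 units in KO minus Scramble.

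**Figure D2:**
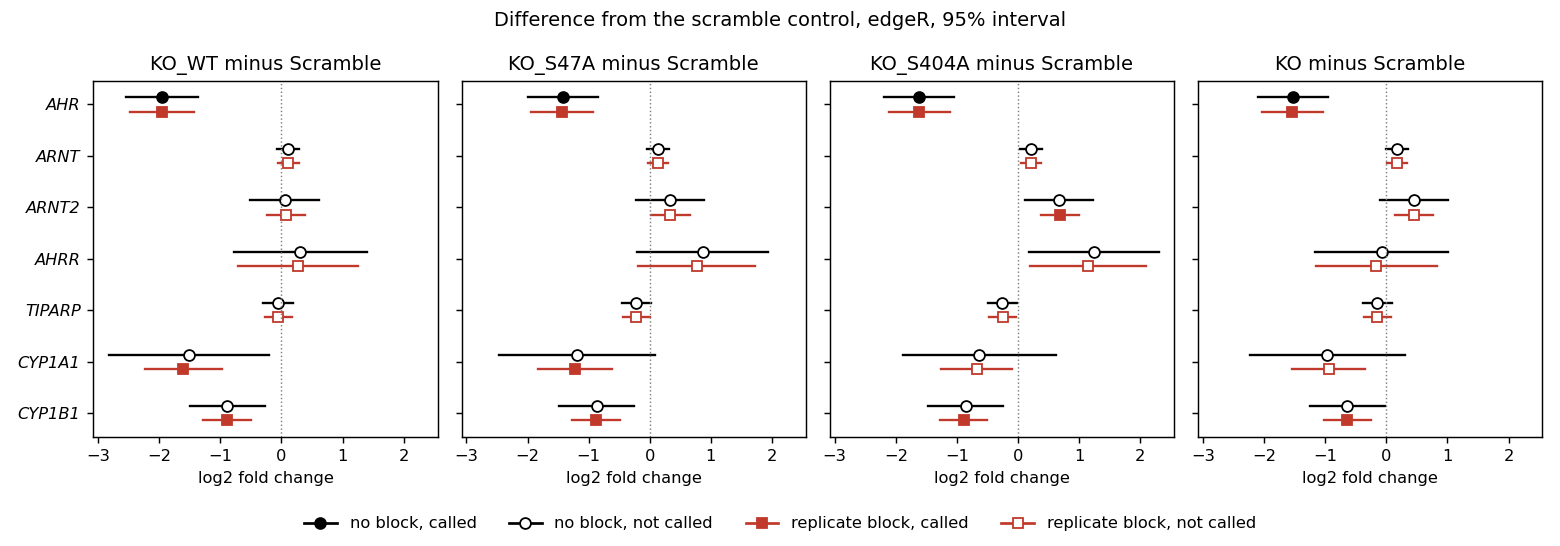
Log2 fold changes of the 7 genes against Scramble with 95% intervals from edgeR, in KO_WT, KO_S47A, KO_S404A and KO, without (circles) and with (squares) the replicate number as a block, filled where called at an adjusted p under 0.05. AHR is filled in every panel in both fits, and CYP1B1 in every panel with the block alone.

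ARNT, the obligate partner of AHR and of the hypoxia factors, was the most abundant of the 7 genes and varied little. Per kilobase of gene length its mean level was 10.7 CPM in KO_WT, 10.9 in KO_S47A, 11.5 in KO_S404A, 11.2 in KO and 9.91 in Scramble. In KO the mean levels per kilobase followed in the order TIPARP at 2.23 ± 0.06, ARNT2 at 0.61 ± 0.14, CYP1B1 at 0.53 ± 0.10, AHR at 0.47 ± 0.07, CYP1A1 at 0.26 ± 0.11 and AHRR at 0.074 ± 0.027 CPM (SD, n = 3). Of these neighbours, ARNT2, CYP1B1 and AHR did not differ beyond their spread. In Scramble AHR came after ARNT and TIPARP at 2.47 ± 0.22, with 1.35 ± 0.07 CPM per kilobase, and before CYP1B1 at 0.83 ± 0.14, CYP1A1 at 0.51 ± 0.25, ARNT2 at 0.45 ± 0.14 and AHRR at 0.077 ± 0.045. There CYP1B1 and CYP1A1 did not differ beyond their spread, and neither did CYP1A1 and ARNT2. ARNT levels were 51.5, 52.5 and 54.3 CPM in KO_WT, 54.0, 58.2 and 49.1 in KO_S47A, 53.5, 61.3 and 55.1 in KO_S404A and 58.4, 53.9 and 53.2 in KO, against 47.2, 50.3 and 49.1 CPM in Scramble. The libraries of KO_WT, KO_S404A and KO all lay above Scramble and those of KO_S47A overlapped it, and the log2 fold changes were 0.11 in KO_WT, 0.14 in KO_S47A, 0.21 in KO_S404A and 0.17 in KO, each minus Scramble (SE 0.08 each), with none called.

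ARNT2, the paralog of ARNT best known from neurons, had its highest levels in KO_S404A. It measured 3.70, 3.37 and 2.83 CPM in KO_WT, 4.65, 4.48 and 2.91 in KO_S47A, 5.60, 5.73 and 3.87 in KO_S404A and 5.34, 4.36 and 3.37 in KO, against 4.25, 2.94 and 2.39 CPM in Scramble. The KO_S404A and Scramble libraries overlapped, since library 1 of Scramble stood above library 3 of KO_S404A. The log2 fold change in KO_S404A minus Scramble was 0.67 (SE 0.26, adjusted p = 0.214), and with the replicate number as a block it was 0.68 with an adjusted p of 0.00757. In KO_S404A minus KO_WT it was 0.62 (SE 0.26, adjusted p = 0.554), and there the libraries did not overlap.

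Neither feedback repressor was called in any comparison. TIPARP, a mono-ADP-ribosyltransferase that marks AHR for degradation, had 9.56, 11.2 and 9.85 CPM in KO_WT, 9.73, 9.36 and 8.27 in KO_S47A, 9.41, 8.76 and 8.55 in KO_S404A and 9.47, 9.37 and 9.87 in KO, against 11.2, 11.2 and 9.52 CPM in Scramble. Against Scramble its log2 fold changes were −0.06 in KO_WT, −0.22 in KO_S47A, −0.25 in KO_S404A and −0.15 in KO (SE 0.11 each), and the libraries of KO_S404A alone did not overlap Scramble. AHRR, which competes with AHR for ARNT, was the scarcest of the 7 in mean CPM per kilobase. It had 0.71, 0.67 and 0.62 CPM in KO_WT, 1.32, 1.05 and 0.56 in KO_S47A, 1.93, 1.13 and 0.74 in KO_S404A and 0.60, 0.63 and 0.30 in KO, against 0.20, 0.81 and 0.59 CPM in Scramble. All 3 KO_S404A libraries were above the KO libraries, with a log2 fold change of 1.32 (SE 0.49, adjusted p = 0.898), which was not called. AHRR overlaps PDCD6 on the same strand, so its counts are uncertain if shared reads were split or dropped.

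The target genes had their highest mean levels in Scramble. CYP1B1, a cytochrome P450 that oxidises estrogens and polycyclic hydrocarbons, had 1.88, 2.25 and 2.79 CPM in KO_WT, 2.08, 1.91 and 3.03 in KO_S47A, 1.48, 2.27 and 3.32 in KO_S404A and 2.59, 2.32 and 3.31 in KO, against 4.00, 3.71 and 5.07 CPM in Scramble. None of the 12 knockout-derived libraries reached the lowest Scramble library, and the share of all genes that separate likewise is not given. The log2 fold changes were −0.88 (SE 0.29) in KO_WT, −0.87 (SE 0.29) in KO_S47A, −0.86 (SE 0.28) in KO_S404A and −0.64 (SE 0.28) in KO, each minus Scramble, with adjusted p between 0.117 and 0.362 by edgeR. CYP1B1 overlaps CYP1B1-AS1 and RMDN2 on the opposite strand, and with an unstated strand setting their reads cannot be told apart. AHR, ARNT2 and TIPARP overlap RNAs on the opposite strand as well. On the same strand, AHR overlaps AC019117.2, annotated as protein-coding, and CYP1B1 overlaps RMDN2-AS1. Neither is named in the count tables, and reads they share with AHR or CYP1B1 cannot be told apart.

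CYP1A1, the most inducible of the AHR targets, was scarce, with 78 reads over the 3 libraries of KO_WT, 110 in KO_S47A, 181 in KO_S404A, 132 in KO and 232 in Scramble. It had 0.29, 0.36 and 1.04 CPM in KO_WT, 0.46, 0.47 and 1.21 in KO_S47A, 0.53, 0.86 and 1.78 in KO_S404A and 0.55, 0.72 and 1.22 in KO, against 1.23, 1.10 and 2.54 CPM in Scramble. The 3 KO_WT libraries lay below the lowest Scramble library, while library 3 of KO_S47A, KO_S404A and KO lay above it. The log2 fold changes were −1.52 (SE 0.61) in KO_WT, −1.19 (SE 0.59) in KO_S47A, −0.63 (SE 0.58) in KO_S404A and −0.97 (SE 0.59) in KO, each minus Scramble, with adjusted p from 0.242 to 0.68 by edgeR.

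Both target genes were highest in library 3 of every line. Library 3 over the mean of libraries 1 and 2 of the same line gave a ratio of 1.91 to 3.2 for CYP1A1 and 1.31 to 1.77 for CYP1B1, higher in 5 of 5 lines. ARNT2 went the other way and was lowest in library 3 in 5 of 5 lines, with ratios of 0.636 to 0.8. AHRR was lowest there in 4 lines, with ratios of 0.478 to 1.16, and AHR in 3 lines, with ratios of 0.567 to 1.15. The ATF4 response and proliferation levels above moved with the same libraries, and their part in these ratios was not tested. The share of all genes that are highest or lowest in library 3 of every line is not given. The pattern therefore cannot be read as particular to CYP1A1, CYP1B1 and ARNT2.

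**Figure D3:**
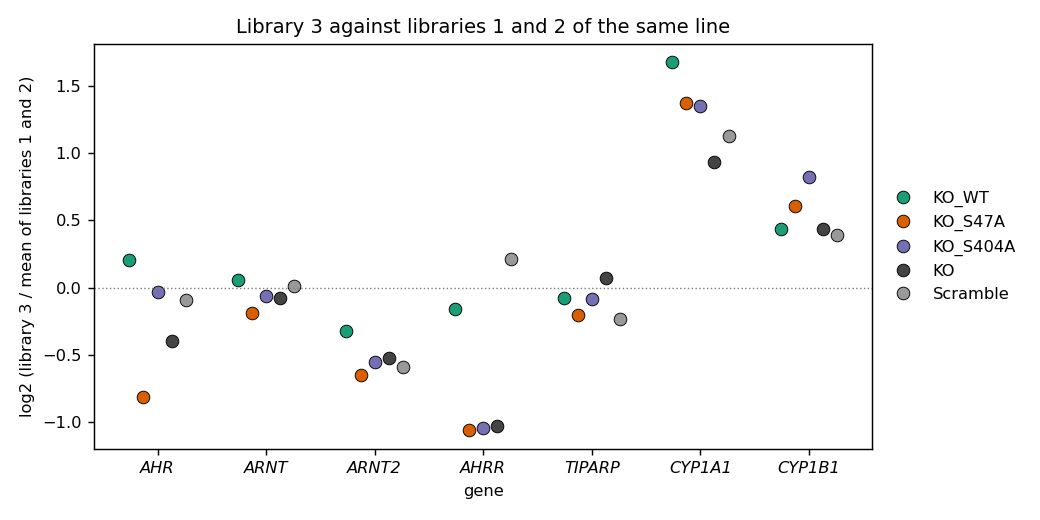
Log2 ratio of library 3 to the mean of libraries 1 and 2 of the same line for each of the 7 genes, 1 point per line, with KO_WT, KO_S47A, KO_S404A, KO and Scramble in that order within a gene. All 5 points of CYP1A1 and of CYP1B1 lie above 0 and all 5 of ARNT2 lie below it.

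With the replicate number as a block in the edgeR fit, more of the 7 genes were called. AHR, CYP1A1 and CYP1B1 were called lower in KO_WT minus Scramble, 3 of 7, where the block called 10% of all tested genes. The same 3 were called in KO_S47A minus Scramble, with 19.5% called among all genes. AHR and CYP1B1 were called lower and ARNT2 higher in KO_S404A minus Scramble, 3 of 7, with 10.7% among all genes. AHR and CYP1B1 were called lower in KO minus Scramble, 2 of 7, with 8.29% among all genes. For CYP1B1 the blocked adjusted p by edgeR was 0.00646 in KO_WT, 0.00504 in KO_S47A, 0.00596 in KO_S404A and 0.0428 in KO. For CYP1A1 it was 0.00248 in KO_WT, 0.00884 in KO_S47A, 0.134 in KO_S404A and 0.0509 in KO. Using only libraries 1 and 2 of every line, edgeR called CYP1A1 beside AHR in KO_WT minus Scramble, with 5.11% called among all genes. It called CYP1B1 beside AHR in KO_S47A minus Scramble, with 15% among all genes, and in KO_S404A minus Scramble, with 6.84%. In KO minus Scramble it called AHR alone, 1 of 7, with 5.37%. DESeq2 on all libraries called AHR and CYP1B1, 2 of 7, in KO_WT minus Scramble with 6.09% called among all genes, in KO_S47A minus Scramble with 7.67% and in KO_S404A minus Scramble with 6.28%. In KO minus Scramble DESeq2 called AHR alone, with 4.84% among all genes.

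Among the lines that carry the knockout, the added proteins gave no called difference in any of the 7 genes. The count was 0 of 7 in KO_WT minus KO (0.0281% of all tested genes called), in KO_S47A minus KO (0.00702%) and in KO_S404A minus KO (0.0211%). It was also 0 of 7 in KO_S404A minus KO_S47A (0.00702%), in KO_WT minus KO_S47A (0%) and in KO_S404A minus KO_WT (0%). At an unadjusted p under 0.05 in edgeR, AHRR passed in KO_S404A minus KO and ARNT2 in KO_S404A minus KO_WT, and the other 4 comparisons had 0. Over all genes, 7.66% of the tests in these 6 comparisons passed that threshold. DESeq2 also called 0 of the 7 in each of these 6 comparisons. KO_WT over KO_S47A sets an active lipase beside an inactive one, and there AHR differed by −0.53 log2 units (95% interval −1.11 to 0.04), CYP1B1 by −0.02 (−0.64 to 0.60) and CYP1A1 by −0.33 (−1.65 to 0.99).

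The rest of the pathway was read from lists of textbook genes. HSP90AB1 and HSP90AA1, the chaperones that hold AHR in the cytosol, were not called in the 4 Scramble comparisons by edgeR without the block, while with it HSP90AA1 was called lower in KO_S47A minus Scramble (adjusted p = 0.00872). HSP90AB1 had 2716 ± 238.7 CPM in KO_WT, 2674 ± 104.9 in KO_S47A, 3074 ± 443.3 in KO_S404A and 3213 ± 172 in KO, against 2903 ± 304.7 CPM in Scramble (SD, n = 3 each). HSP90AA1 had 2666 ± 631 CPM in KO_WT, 2333 ± 699.7 in KO_S47A, 2781 ± 755.3 in KO_S404A and 3432 ± 497.7 in KO, against 3137 ± 670.3 CPM in Scramble. For AHR turnover (CUL4B, DDB1, TBL3 and STUB1, parts of its ubiquitin ligase and a chaperone-linked ligase) 4 of 4 were tested and 0 were called in these comparisons by edgeR, with 0 at an unadjusted p under 0.05 and 0 by DESeq2. Their median log2 fold changes ran from −0.16 to 0.12, beside 0.010 to 0.028 over all tested genes. DDB1, a ubiquitin ligase adaptor, had 138.5 ± 11.6 CPM in KO_WT and 160.3 ± 9.84 in KO, against 153.9 ± 10.1 CPM in Scramble. STUB1, the ligase also named CHIP, had 63.7 ± 0.26 CPM in KO_WT and 74.0 ± 4.64 in KO, against 72.2 ± 7.59 CPM in Scramble.

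NCOA1 was the only 1 of 6 coactivator genes called against Scramble, and it rose in all 4 lines. In these comparisons edgeR called 2.69% to 3.82% of all tested genes. NCOA1 encodes steroid receptor coactivator 1, which AHR and nuclear receptors recruit. Its level was 115.7 ± 4.12 CPM in KO_WT, 113 ± 7.20 in KO_S47A, 136.7 ± 20.4 in KO_S404A and 132.9 ± 17.3 in KO, against 75.6 ± 2.00 CPM in Scramble (SD, n = 3 each), and no library of the 4 lines overlapped Scramble. NCOA1 differed from Scramble by 0.61 log2 units (SE 0.11, adjusted p = 0.0077) in KO_WT, 0.58 (SE 0.11, adjusted p = 0.0107) in KO_S47A, 0.85 (SE 0.11, adjusted p = 0.000835) in KO_S404A and 0.81 (SE 0.11, adjusted p = 0.00118) in KO by edgeR. The KO_S47A call was lost without library 3 of Scramble (adjusted p = 0.0538) or without library 2 of KO_S47A (adjusted p = 0.0503). The list's median ran from −0.08 to 0.30 over the 4 comparisons. At an unadjusted p under 0.05 by edgeR, 7 of its 24 tests passed, beside 15.5% of the tests of all genes.

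Other AHR target genes moved in both directions. Of 14 on the list 9 were tested, and ALDH3A1, UGT1A1, UGT1A6, EREG and SERPINB2 did not pass the filter on low counts. GSTA2, a glutathione transferase, rose in KO_WT minus Scramble, with 1.47 ± 0.38 CPM in KO_WT against 0.518 ± 0.038 CPM in Scramble (log2 fold change 1.50, SE 0.31, adjusted p = 0.0135). It also rose in KO_S47A, at 1.44 ± 0.067 CPM (1.47, SE 0.31, adjusted p = 0.0158). CYP2S1, a cytochrome P450 of epithelia, rose in KO_S47A minus Scramble, with 2.49 ± 0.55 CPM in KO_S47A against 0.875 ± 0.21 CPM in Scramble (1.51, SE 0.36, adjusted p = 0.0327). HES1, a Notch effector and transcriptional repressor, fell in KO_S47A minus Scramble, with 6.02 ± 1.45 CPM in KO_S47A against 13.3 ± 1.79 CPM in Scramble (−1.14, SE 0.24, adjusted p = 0.0173). These are the 4 calls by edgeR among 36 tests, beside 17 at an unadjusted p under 0.05 and 10 calls by DESeq2. Over all genes in the Scramble comparisons, edgeR called 2.69% to 3.82% and DESeq2 4.84% to 7.67%. An unadjusted p under 0.05 was reached there in 15.5% of all edgeR tests. Each of the 4 calls was lost when certain single libraries were left out. For GSTA2 in KO_WT these were library 1 of KO_WT or any of the 3 of Scramble (adjusted p 0.0519 to 0.0791), and for GSTA2 in KO_S47A they were library 1 or 2 of KO_S47A or any of Scramble (0.0516 to 0.0691). For CYP2S1 they were library 1 or 2 of KO_S47A or any of Scramble (0.0575 to 0.133), and for HES1 library 1 or 2 of KO_S47A or library 1 or 3 of Scramble (0.0539 to 0.0961). With 2 groups only, the calls of GSTA2 in KO_WT (adjusted p = 0.057) and of CYP2S1 (0.0507) were lost, and with libraries 1 and 2 only that of GSTA2 in KO_WT (0.0733). GSTA2 has near-identical paralogs, so its counts are uncertain.

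**Figure D4:**
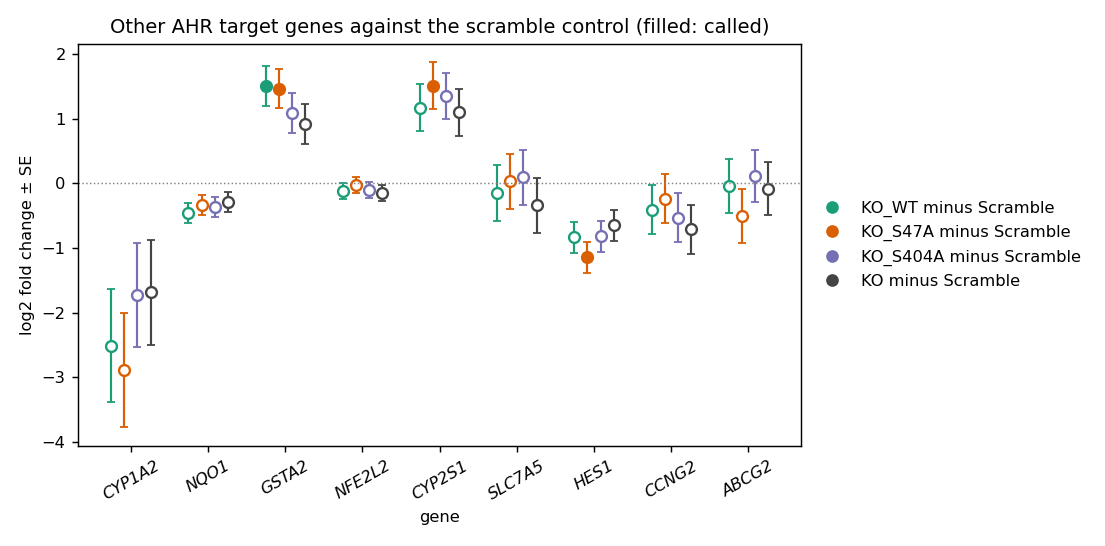
Log2 fold change ± SE of the 9 tested genes of the list of other AHR targets in KO_WT, KO_S47A, KO_S404A and KO, each minus Scramble, filled where called by edgeR without the block. GSTA2 and CYP2S1 lie above 0 and CYP1A2, NQO1, NFE2L2, HES1 and CCNG2 below 0 in all 4 lines.

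With the block, 18 of the 36 tests of these targets were called, 7 higher and 11 lower, where the block called 8.29% to 19.5% of all tested genes. The genes named in this paragraph were chosen after their values were seen. The higher calls were CYP2S1 in all 4 lines and GSTA2 in KO_WT, KO_S47A and KO_S404A. HES1 and NQO1 were lower in all 4 lines, CCNG2 in KO_S404A and KO, and CYP1A2 in KO_S47A. NQO1, the quinone reductase that AHR and NRF2 both induce, had 115 ± 21.0 CPM in KO_WT, 124.7 ± 14.8 in KO_S47A, 122.6 ± 19.3 in KO_S404A and 129 ± 16.2 in KO, against 157.5 ± 16.1 CPM in Scramble. Its adjusted p by edgeR was 0.000574 in KO_WT, 0.00435 in KO_S47A, 0.00324 in KO_S404A and 0.0168 in KO with the block, and 0.164 to 0.506 without it. CYP1A2, the partner gene of CYP1A1, had 0.12 ± 0.16 CPM in KO_WT, 0.088 ± 0.087 in KO_S47A, 0.20 ± 0.012 in KO_S404A and 0.21 ± 0.16 in KO, against 0.67 ± 0.16 CPM in Scramble, and was called with the block in KO_S47A alone (adjusted p = 0.0191). The median of the 9 targets ran from −0.29 to −0.10 over the 4 comparisons. In KO_S47A minus KO the block called 22.1% of all tested genes, among them 9 of the genes on these lists, HSP90AA1, HSP90AB1, PTGES3, STUB1, SMARCA4, ARNTL2 and HES1 lower and SLC7A5 and CCNG2 higher, against 0 without the block. The share of tested list genes that these 9 make up is not given, so the count is not a result about the lists.

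The other bHLH-PAS genes gave 0 calls against Scramble by edgeR, with 9 of 12 tested, and 0 by DESeq2. At an unadjusted p under 0.05, 3 of their 36 edgeR tests passed, beside 15.5% of the tests of all genes. HIF1A, the oxygen-regulated factor that shares ARNT with AHR, had 121.8 ± 9.24 CPM in KO_WT, 119.4 ± 7.16 in KO_S47A, 127.1 ± 15.0 in KO_S404A and 141.1 ± 10.9 in KO, against 117.1 ± 4.04 CPM in Scramble. ARNTL2, a clock factor, had 20.03 ± 2.72 CPM in KO_WT and 23.8 ± 2.32 in KO, against 20.1 ± 3.21 CPM in Scramble. NPAS1, chosen after its values were seen, was called higher with the block in KO_S47A minus Scramble (adjusted p = 0.0137) and KO_S404A minus Scramble (adjusted p = 0.0315). Enzymes that make tryptophan-derived ligands were sparse, with 3 of 7 tested and 0 called by edgeR, 0 at an unadjusted p under 0.05 and 0 by DESeq2. AFMID, the kynurenine formamidase, had 36.3 ± 1.17 CPM in KO_WT and 32.6 ± 0.93 in KO, against 32.7 ± 0.90 CPM in Scramble. IL4I1, an amino acid oxidase that gives AHR ligands, had 2.74 ± 0.40 CPM in KO_WT and 2.16 ± 0.30 in KO, against 2.35 ± 0.78 CPM in Scramble, while IDO1, IDO2, TDO2 and KMO did not pass the filter. In the 6 comparisons without Scramble, edgeR and DESeq2 called 0 genes of these lists. At an unadjusted p under 0.05, edgeR passed 10 of 36 tests of coactivators, 4 of 24 of turnover genes, 4 of 54 of bHLH-PAS genes, 1 of 18 of ligand enzymes and 0 of 54 of other targets, beside 7.66% of the tests of all genes in these 6 comparisons.

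The genes most like AHR over the 15 libraries were DNAH9, CCNYL1, SHPRH, TRIB2 and AK5, with Pearson r of log2 CPM of 0.941, 0.908, 0.905, 0.895 and 0.895 among 12091 genes that averaged 1 CPM or more. All 5 averaged more in Scramble than in the 12 knockout-derived libraries. DNAH9, an axonemal dynein gene, averaged 1.93 CPM in the 12 knockout-derived libraries and 2.84 CPM in Scramble, and TRIB2, a pseudokinase gene, averaged 1.51 and 17.1 CPM. Over the 12 knockout-derived libraries alone, r with AHR was 0.78 for DNAH9, 0.69 for CCNYL1, 0.49 for SHPRH, 0.35 for TRIB2 and 0.42 for AK5. CYP1A1 had the widest spread of line means after AHR, 1.61 log2 units against 2.02. The genes most like it were NCAPH2, GNB1L, SMTN, RRP7A and SH3BP1, with r of 0.939, 0.937, 0.923, 0.922 and 0.921. All 5 lie on chromosome 22, which holds 2.49% of the 11871 compared genes with a known place, whereas CYP1A1 lies on chromosome 15. These r values are descriptions over libraries that share line, library number and depth.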

How the data were processed

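Poly(A) RNA of 15 libraries, 3 for each of 5 C4-2 lines, was sequenced from a directional kit, per the labels' protocols. The authors deposited read counts per gene as whole numbers that were not normalized, and FPKM values, from which only gene lengths were taken (recomputed FPKM deviated by a relative 5.1e-15 at most). CASAVA and STAR are named without versions in the submitters' processing notes, while genome build, annotation and strand setting are not given in the sources available, so overlapping and antisense genes cannot be told apart. Unassigned reads, 13.2% to 20.6% of a library, stayed out of library sizes and tests.

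Counts were analysed in R 4.3.3 with edgeR 4.0.16. Genes were filtered with filterByExpr (14246 of 20806 kept) and scaled by TMM, and quasi-likelihood models with 1 mean per line were fitted to all 15 libraries (10 residual degrees of freedom), with 10 comparisons between lines. Calls are made at an adjusted p under 0.05 (Benjamini-Hochberg over the tested genes of a comparison). SE is the absolute log2 fold change over the square root of the F statistic, intervals are 95%, and their median halfwidth over all genes was 0.36 in every comparison. AHR, ARNT2, AHRR, CYP1A1 and CYP1B1 had wider intervals, for example −2.82 to −0.21 for CYP1A1 in KO_WT minus Scramble and −1.17 to 1.01 for AHRR in KO minus Scramble. The members and lists were chosen with earlier results of these data known. Some genes of these lists are not reported here. Beside the 7 genes and PNPLA2, the text names list genes called in any comparison, the 2 most abundant per length of a list with none called, and the 5 genes most like AHR and most like the member with the next widest range.

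Alternatives were DESeq2 1.42.0, RLE scaling, no filter, 2 groups only, libraries 1 and 2 only, each library left out and the replicate number as a block. Libraries of a line differed by a chi-square per degree of freedom of 8.11 to 239 over genes, so none was counted as a duplicate. In KO_S404A it was 148 between libraries 1 and 2 and 140 between 2 and 3, so library 3 did not stand apart from library 2 by this measure. In KO it was 40 between libraries 1 and 2 and 47 between 2 and 3, so library 3 stood little further from library 2 than library 1 did. Same-numbered libraries deviated together from their line means over 12092 genes, with a correlation over 0.1 for every pair in 9 of the 10 comparisons and not in KO_S404A minus KO (−0.027 at the lowest), so blocked values stand beside the reported results that they change. Number 3 correlated with 1 and 2 of other lines at a median of −0.57, 1 with 2 at 0.48 and equal numbers at 0.52. The lowest correlation of 1 with 2 was 0.14, also over 0.1, so this check cannot show that equal numbers are pairs. In KO_S404A minus Scramble the lowest correlation of equal numbers was 0.101. Deviations were taken from the mean of a line's own 3 libraries, so those within a line are not independent.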

Additional observations from a re-analysis of the deposited data

How the results depend on the processing

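AHR was called lower against Scramble in all 4 lines under every alternative run, with log2 fold changes from −2.19 to −1.72 in KO_WT, −1.70 to −1.21 in KO_S47A, −1.68 to −1.56 in KO_S404A and −1.60 to −1.41 in KO, and adjusted p of at most 0.0428. The number of the 7 genes called against Scramble was 1 in each line. With the replicate block it was 3 in KO_WT, 3 in KO_S47A, 3 in KO_S404A and 2 in KO. With DESeq2 it was 2 in KO_WT, 2 in KO_S47A and 2 in KO_S404A, and with libraries 1 and 2 only it was again 2 in each of these 3 lines. Both settings also called a larger share of all genes, 4.84% to 7.67% with DESeq2 and 5.11% to 15% with libraries 1 and 2 only, against 2.69% to 3.82% in the edgeR fit to all libraries. Leaving out 1 library at a time gave 1 to 2 in KO_S404A minus Scramble, where CYP1B1 was called without library 3 of KO_S404A (adjusted p = 0.0483), and 1 in the other 3. RLE scaling, no filter and 2 groups only changed none of these counts. The block changed no call of the 7 genes in the 6 comparisons without Scramble. In KO_S404A minus KO, where equal numbers did not all correlate over 0.1, it moved the calls over all genes to 14, against 3.

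Values that changed sign under an alternative were uncalled. Log2 fold changes of single genes were followed through all alternatives only in comparisons minus Scramble or minus KO. Elsewhere only the block was followed, and it moved CYP1B1 from 0.027 to −0.00035 in KO_S404A minus KO_WT and from 0.0080 to −0.012 in KO_S404A minus KO_S47A. With 1 library left out at a time, log2 fold changes in KO_S47A minus KO ran from −0.16 to 0.34 for AHR, −0.083 to 0.033 for ARNT, −0.27 to 0.079 for ARNT2, −0.83 to 0.16 for CYP1A1 and −0.11 to 0.0040 for TIPARP, which was at 0.018 with libraries 1 and 2 only. In KO_S404A minus KO they ran from −0.023 to 0.081 for ARNT, −0.26 to 0.71 for CYP1A1 and −0.55 to 0.024 for CYP1B1. In KO_WT minus Scramble they ran from −0.071 to 0.73 for AHRR and −0.12 to 0.30 for ARNT2, which was at −0.017 with libraries 1 and 2 only. In KO minus Scramble AHRR ran from −0.47 to 0.33 and was at 0.25 with libraries 1 and 2 only. Fewer samples entered these fits, and the cause was not tested otherwise. Low counts limit AHRR and CYP1A1, which had 77 and 232 reads in Scramble over 3 libraries.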
